A study of Mus musculus with 15 samples.

Results

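The RNA fragments crosslinked to Mbnl3 in C2C12 myoblasts were compared with those crosslinked to it in wild-type (WT) mouse forelimb. Both came from HITS-CLIP, in which UV light links a protein to the RNA it touches, an antibody pulls the protein down and the attached RNA fragments are sequenced; each distinct fragment is called a tag. A cluster is a run of tags on the same strand that overlap by at least 1 nt. Of 493156 clusters formed by the tags of both sample types, 3079 (0.624%) held at least 10 tags in the myoblasts or in the pooled forelimb libraries, and these are the clusters described here. With the Mbnl3 mutant forelimb tags of the same study added, 3233 clusters reached that number.

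Mbnl3 is a muscleblind-like protein, one of a family of zinc finger proteins that bind RNA and regulate splicing and the fate of messenger RNA. Its relative Mbnl1 promotes the splicing changes of muscle maturation, whereas Mbnl3 is known for expression in embryonic tissue and in muscle precursors. C2C12 is an established mouse line of myoblasts, the dividing precursors of muscle fibres, while a forelimb at this age holds skin, cartilage, bone, connective tissue, vessels, blood and muscle together. In such mixed tissue, fewer cells of a type and less RNA per cell cannot be told apart.

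The WT forelimbs were from BL6 embryos at 15 days post coitum, and the labels speak of female WT mice. Each of 3 biological replicates held 4 forelimbs from 2 embryos, frozen, powdered and crosslinked. C2C12 cells with a WT genotype, kept in DMEM with 20% FBS, came as 3 biological replicates of 5 plates each, and all were precipitated with the antibody Mb3/7. The labels name a high and a low RNase A concentration, but not which library received which. The rows of the C2C12 list carry no replicate number, so the cells entered as 1 pooled set, and differences between cells and tissue cannot be told apart from differences between the 2 ways the libraries were made.

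The forelimb libraries held 35413, 74123 and 124309 tags, and the pooled C2C12 set held 550124. Tags in the C2C12 list were 26 to 30 nt long, while forelimb tags were 19 to 38 nt long, with 16% to 19.7% of them between 26 and 30 nt. The forelimb libraries also shared molecules, defined as the same position, strand and barcode: 10552 between replicates 1 and 2, 11099 between 1 and 3, and 24005 between 2 and 3, the last being 32.4% of replicate 2. No molecule was shared between forelimb and C2C12. The 3 item colours of the C2C12 list overlapped likewise, with 115569 molecules present in more than 1 colour, and these were counted once. Levels below are in CPM, the tags per 1000000 tags of the library, errors are SDs over the 3 forelimb libraries, and intervals for the pooled C2C12 set are exact 95% Poisson intervals that cover counting error only. A cluster is called where edgeR gave an adjusted p of at most 0.05 over all 3079 clusters; 26.7% of the clusters were called higher in C2C12 and 41% lower, and every cluster with no tag in one sample type was among them. A cluster that reached 10 tags in one sample type alone entered through that type, so calls at such clusters describe them and support nothing. Such a cluster need not differ, since at an equal level 10 C2C12 tags go with 4.25 pooled forelimb tags.

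The sharpest contrasts were stretches of the genome that carried many forelimb tags and no C2C12 tag. The heaviest was a set of 10 clusters on the minus strand at chr15:101675855-101690336 (mm9), where the forelimb libraries had 6015, 5653 and 5881 CPM and C2C12 had 0 of 550124 tags. All 3 forelimb libraries lay close together there (mean 5849 ± 183, n = 3), and folds against an absent C2C12 tag use a floor of 3 tags, 5.45 CPM (the two-sided interval of 0 tags reaches 6.71). Sets are clusters on one strand within 10000 nt of each other, and no gene annotation of this build was used, so places outside the deposited exon table are given by coordinates.

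A further set on the minus strand of chromosome 7, chr7:149836678-149845293, had 7850, 5410 and 4795 CPM in the forelimb libraries (mean 6018 ± 1616) against 1 C2C12 tag, or 1.82 CPM. Forelimb replicate 1 was the highest of the libraries there, and all of them lay far above C2C12. In the strongest of its 6 clusters, chr7:149844614-149845160, the forelimb libraries had 5337, 3049 and 2735 CPM and C2C12 had 0. The pooled forelimb level there, 3229 CPM, was 592-fold above 3 C2C12 tags.

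Among the 15 sets with most forelimb tags, 5 more had no C2C12 tag. On the minus strand of chromosome 11, chr11:99993095-99997286 held 2585 ± 272 CPM over its 5 clusters, and the single cluster chr11:99250054-99250673 held 1979 ± 477. On chromosome 15, the 5 clusters of chr15:101748980-101755163 held 2556 ± 539. A pair of clusters on the plus strand, chr12:110698518-110698810, held 1939 ± 84, with libraries at 1977, 1997 and 1842. The 3 clusters of chr13:38289676-38290266 held 1756 ± 119. In each of these sets the forelimb libraries differed from each other by less than their distance from C2C12. All sets named for many forelimb tags, here and in the neighbouring paragraphs, were picked by that level. The forelimb libraries also share molecules, so their closeness and their distance from C2C12 describe the sets and support nothing. Ranks beyond the first 5 of each sample type were added after the values were seen.

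Not every forelimb-rich place was empty in C2C12. At chr11:94805912-94814358 on the plus strand, 7 clusters held 4405, 2604 and 2212 CPM in the forelimb and 29.1 in C2C12 (16 tags), which is 106-fold lower. Its main cluster, chr11:94814069-94814264, had 2387 ± 1011 in forelimb and 12.7 in C2C12. At chr6:135331023-135333122, 8 clusters held 1824 ± 190 against 276, and 2 of them were called lower and 1 higher.

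**Figure D1:**
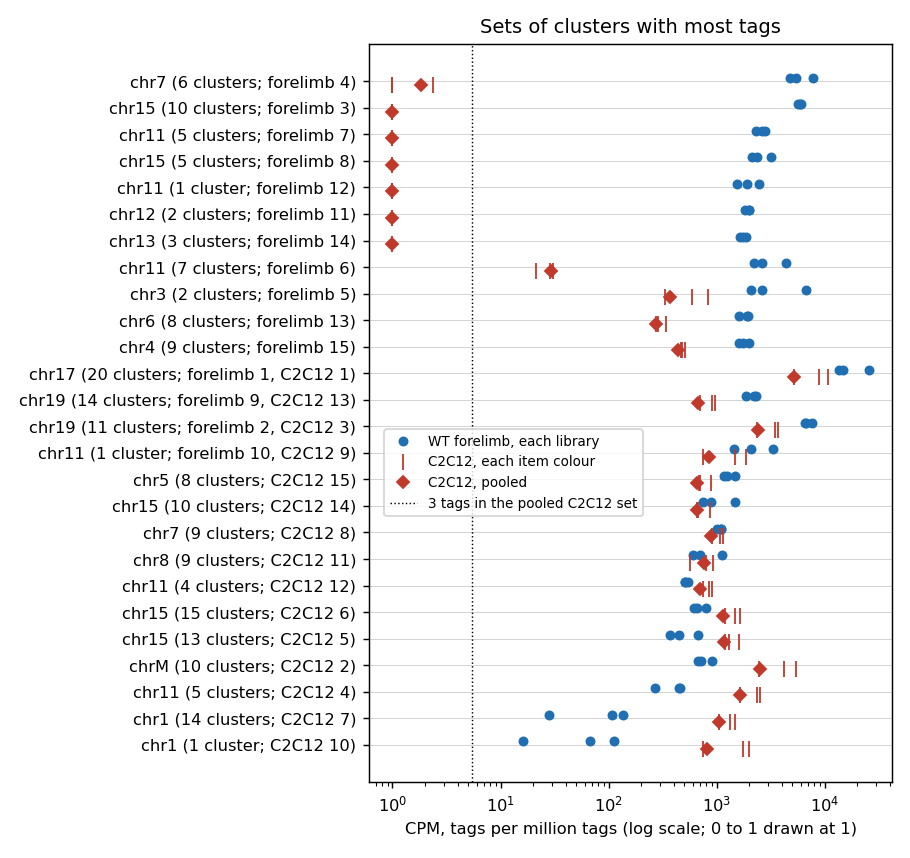
CPM (log scale; values from 0 to 1 drawn at 1) in the 26 sets of clusters that rank among the 15 with most tags in WT forelimb or in C2C12, ordered by the ratio of forelimb to C2C12; labels give the chromosome, the number of clusters and the rank. Circles are the 3 forelimb libraries, diamonds the pooled C2C12 set, ticks the 3 item colours of the C2C12 list, and the dotted line 3 tags in the pooled set; 4 of the 26 sets ranked in both sample types.

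C2C12 had its own dense places. Those in this paragraph and the next were named for their many C2C12 tags, so calls there describe them and support nothing. On the minus strand at chr1:72904584-72910592, 14 clusters held 28.2, 108 and 137 CPM in the forelimb libraries and 1056 in C2C12 (581 tags), 11.6-fold above the forelimb mean, and 11 of them were called higher. At chr11:118162430-118178844, 5 clusters held 452, 270 and 459 in forelimb and 1647 in C2C12. All 5 were called higher, and the C2C12 level lay above each forelimb library. The single cluster chr1:56838893-56839236 had 113, 67.5 and 16.1 in forelimb and 822 in C2C12 (log2 fold 4.06, SE 0.43, edgeR adjusted p = 4.24e-19), a log2 fold that was 3.29 without forelimb replicate 3, 4.91 without item colour 1 and 2.89 without shared molecules.

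The cluster chr5:104869255-104870062 on the plus strand showed one of the widest gaps in this direction. Its forelimb libraries held 0, 2 and 1 tags, while C2C12 held 242, or 440 CPM. A set of 13 clusters at chr15:76001421-76012914 held 678, 445 and 370 in forelimb and 1167 in C2C12, with 9 clusters called higher and 1 lower. At chr15:77591017-77603872 the 15 clusters held 692 ± 91.8 against 1154, with 13 called higher and 1 lower; under TMM scaling 14 were called higher and none lower.

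The mitochondrial chromosome, which encodes ribosomal RNAs, transfer RNAs and respiratory chain subunits, was denser in C2C12. Its 11 clusters, 10 of them on the plus strand, held 904, 715 and 676 CPM in the forelimb libraries (765 ± 122). In C2C12 they held 2521 (interval 2390 to 2658), a ratio of 3.3. At the cluster between bases 76 and 1025, the level was 139 ± 24.7 in forelimb and 698 in C2C12. Between 1031 and 2123 it was 466 ± 102 against 1147, with a log2 fold of 1.36 that was 1.16 and no longer called without forelimb replicate 3 (edgeR adjusted p = 0.101). Both of these clusters were named for their many C2C12 tags, so calls there describe them and support nothing. The item colours of C2C12 disagreed on the size over all mitochondrial clusters, with 2488, 4252 and 5527 CPM, but each lay above every forelimb library. Since the colours share molecules and no label makes a colour a replicate, this is no agreement between replicates.

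Over all tags, inside and outside the clusters, the mitochondrial share was 0.0799% ± 0.0115 in forelimb and 0.327% in C2C12. The X chromosome took 2.82% ± 0.151 and 3.14%, and the plus strand took 49.3% ± 0.198 and 48%. With 3 libraries against 1 set, the smallest p of an exact two-sided permutation test is 0.25. It was 0.25 for the mitochondrial share, 0.5 for the X chromosome and 0.25 for the plus strand (0.375, 0.5 and 0.375 after Benjamini-Hochberg adjustment over the 3), so none of these could pass.

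Some of the densest places were shared by both sample types. The set with most tags in each was chr17:39979942-39985763 on the plus strand, with 20 clusters, 25471, 14773 and 13410 CPM in the forelimb libraries and 5237 in C2C12. Forelimb replicate 1 stood well above the other two, and the C2C12 item colours had 5163, 8932 and 10776, the last close to forelimb replicate 3. The set chr19:5796049-5802667 on the minus strand held 6523, 6705 and 7546 in forelimb and 2434 in C2C12 over 11 clusters. The largest clusters of these sets were called lower when scaled to all tags but not under TMM scaling: chr17:39984368-39985249 had a log2 fold of -1.46 (edgeR adjusted p = 0.0164) and of -0.04 under TMM (0.927), and chr19:5797154-5799352 had -1.62 (0.00354) and -0.33 (0.497). Without forelimb replicate 2 the edgeR calls were also lost, but the log2 folds were as large, -1.59 (0.179) and -1.65 (0.0856). Without item colour 1 the first was -0.8 (0.144).

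Within such a set, the place of the tags could differ as well as their number. In the chromosome 17 set, the cluster chr17:39984118-39984215 held 4547 ± 1565 CPM in forelimb and 367 in C2C12, whereas chr17:39979942-39980126 at the set's start held 30.9 in forelimb and 115 in C2C12. On chromosome 8, 2 clusters touched end to end on the minus strand. At chr8:3754400-3754491 there were 86, 81 and 130 forelimb tags and 67 C2C12 tags, or 1522 ± 785 against 122 CPM. At chr8:3754492-3754760 there were 1, 1 and 3 forelimb tags and 141 C2C12 tags, or 22 ± 7.61 against 256. These clusters were chosen after their values were seen, so no test is given.

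A comparable pair lay on the plus strand of chromosome 3. At chr3:5860592-5860829 the forelimb libraries held 237, 193 and 260 tags and C2C12 held 168, or 6692, 2604 and 2092 against 305 CPM; the forelimb mean of the set was 3796, and 2348 without replicate 1. At chr3:5860338-5860405 they held none, and C2C12 held 35 tags. Of the 596 sets with 2 or more clusters, some held clusters called in both directions whichever of 3 scalings was used. Most of the clusters called higher there had no forelimb tag and entered through C2C12 tags alone. Such sets therefore follow in part from the entry rule and support nothing.

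**Figure D2:**
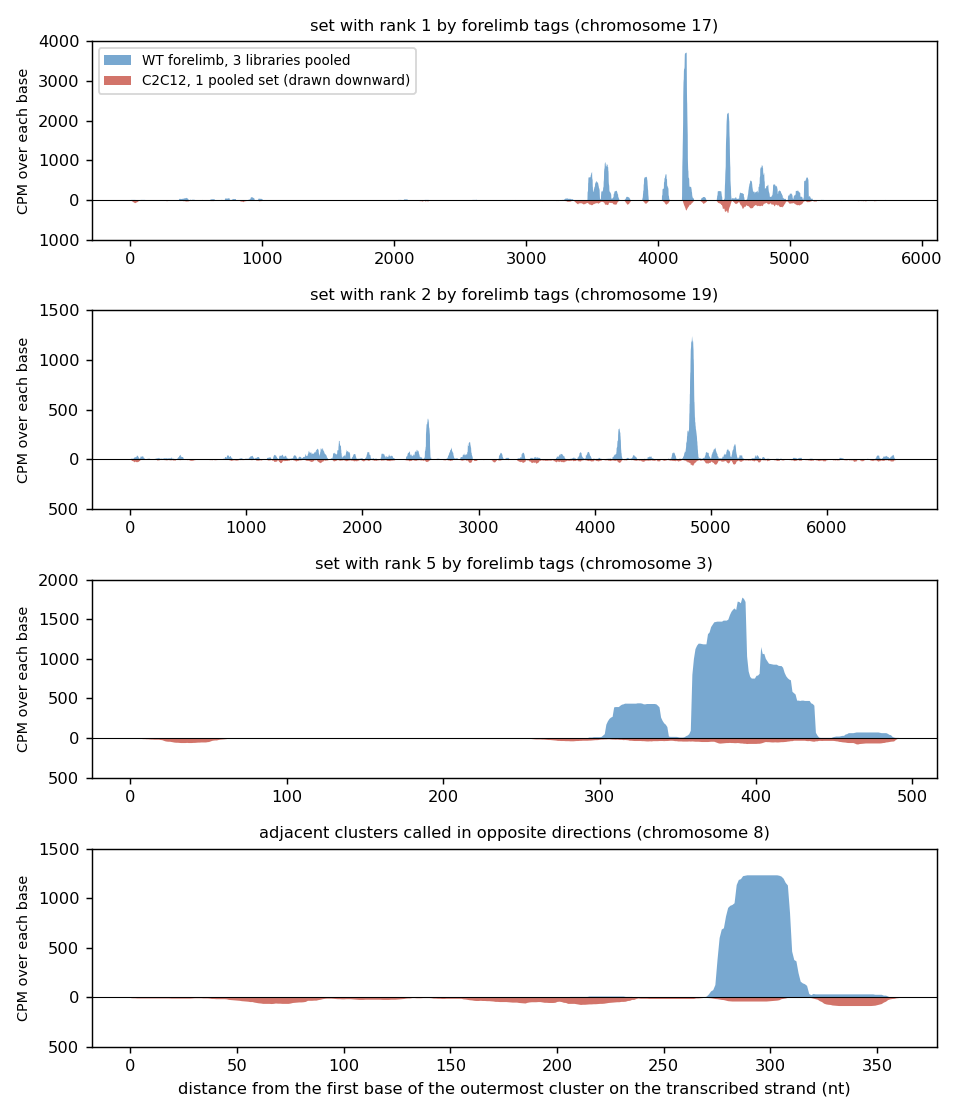
CPM covering each base along 4 sets of clusters, from the first base of the outermost cluster on the transcribed strand (nt); WT forelimb (3 libraries pooled) points up and C2C12 (1 pooled set) points down on the same linear scale. In the chromosome 8 pair the forelimb tags pile up in 1 narrow block while C2C12 tags spread over both clusters.

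Positions within shared clusters were compared through the densest point, the middle of the bases covered by most tags. Over the 574 clusters with at least 10 tags in both sample types, the densest points of C2C12 and pooled forelimb were a median of 22.5 nt apart, and 41.6% were within 15 nt. Forelimb libraries compared with each other differed less: in the 174 clusters with 10 tags in forelimb replicates 2 and 3 and in C2C12, the median was 5.75 nt between the 2 replicates and 18.2 nt between C2C12 and replicate 3. The share within 15 nt was 71.8% and 47.7%. The forelimb libraries share molecules and the full range of tag lengths, which C2C12 does not, and the part of either in this gap was not tested. With tags of 26 to 30 nt alone, the C2C12 to forelimb median was 27.5 nt over 113 clusters.

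**Figure D3:**
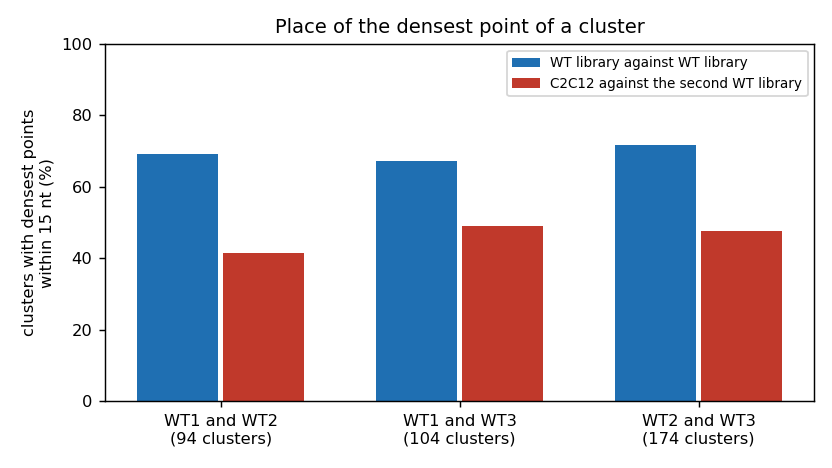
Share of clusters (%) whose densest points lie within 15 nt of each other, for each pair of WT forelimb libraries and, in the same clusters, for C2C12 against the second library of the pair. The forelimb pairs reach 67.3% to 71.8% and C2C12 reaches 41.5% to 49%.

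Across all 3079 clusters, edgeR's quasi-likelihood test called 2083 (67.7%) at an adjusted p of 0.05, 822 higher in C2C12 (26.7%) and 1261 lower (41%). These counts follow in part from how clusters entered. A count of 10 is 42.8 CPM in the pooled forelimb libraries but 18.2 in C2C12, and 795 of the 822 higher calls were at clusters with fewer than 10 forelimb tags, 611 of them with none. Likewise, 951 of the 1261 lower calls were at clusters with fewer than 10 C2C12 tags, 312 of them with none. A cluster with exactly 10 tags in its fuller set occurred 504 times, and 671 clusters with exactly 9 lay just outside. Among the 574 clusters with 10 tags in both, which both sample types had to hold, 27 were called higher and 310 lower. Under every scaling used with edgeR, 27 of these were called higher and 64 lower, so most of the lower calls depended on scaling. This subset is not free of the entry rule either. The same count asks for 42.8 CPM in forelimb but 18.2 in C2C12, which favours lower calls.

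Scaling moved the balance. TMM moved every log2 fold upward, by 0.48 to 1.47, took the median from -0.23 to 1.00 and called 1287 higher and 759 lower, so 62.9% of calls were higher against 39.5% when scaled to all tags. Since that move favours higher calls, the 822 clusters (26.7%) called higher under all 3 scalings are no test of those calls; 759 (24.7%) were called lower under all 3. With shared molecules left out as well, 128 and 471 of these were called. Only 1890 clusters then held enough tags to be tested, and a cluster not tested counts here as not called. DESeq2 with its own size factors called 88 higher and 84 lower. By counting error alone, the 95% intervals of C2C12 and pooled forelimb did not overlap at 289 clusters with C2C12 higher (9.39%) and at 1144 with C2C12 lower (37.2%). Restricted to tags of 26 to 30 nt, the test called 18 of 2197 clusters higher and 173 lower. Without forelimb replicate 1 it called 488 and 1008 of 2837, and without replicate 2 it called 122 and 648 of 2618. Without replicate 3 it called 142 and 485 of 2406, and without item colour 1 it called 326 and 1161 of 1885.

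**Figure D4:**
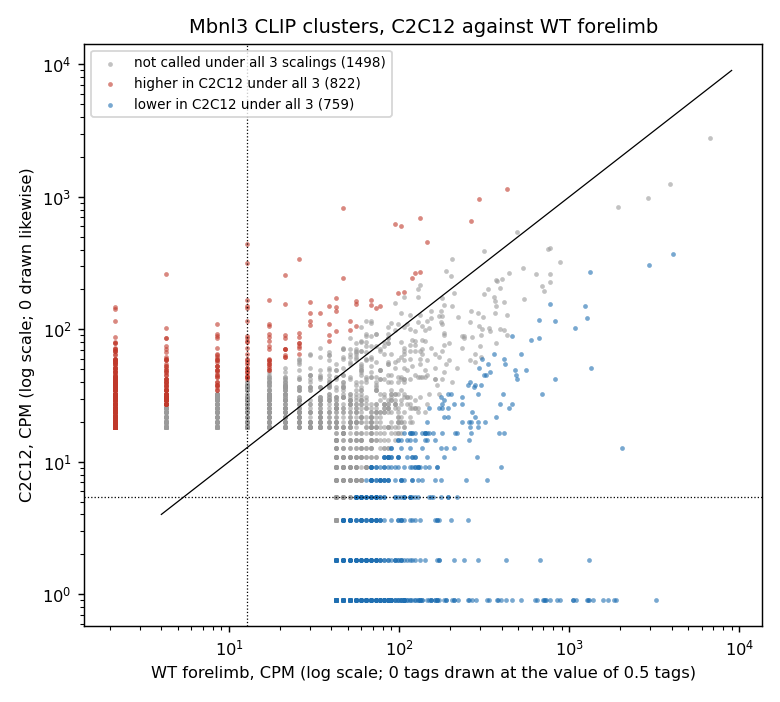
CPM in WT forelimb (3 libraries pooled) and in C2C12 (1 pooled set) for each of the 3079 clusters, on log axes with 0 tags drawn at the value of 0.5 tags; the solid line marks equal levels and the dotted lines 3 tags. Coloured points were called in the same direction under all 3 scalings (822 higher, 759 lower), and the empty lower left corner is the entry rule of 10 tags.

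The tags themselves were spread differently. The clusters described here took 26.4%, 22.3% and 21.4% of the tags of the forelimb libraries but 10% of the C2C12 tags. The 100 fullest clusters of each library took 12%, 8.93% and 8.27% in forelimb and 2.97% in C2C12, and the 3 item colours taken singly reached 2.95% to 5.04%. Of the clusters, 272 reached 42.8 CPM in both sample types, 1255 in forelimb only and 196 in C2C12 only. Clusters with 10 tags in forelimb only had a median width of 89 nt, those in C2C12 only 120 nt, and those in both 189 nt.

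Ordered by fitted fold, the first 15 called clusters in each direction had no tag in the other sample type; a fitted fold over 0 tags is no measured size, and clusters with larger measured gaps, such as chr5:104869255-104870062, are not among them. Those lower in C2C12 held 760 to 3707 CPM in forelimb as the mean of the libraries. Their pooled forelimb level was 142-fold to 592-fold above 3 C2C12 tags. One was chr10:18576304-18576674, with 45, 93 and 169 forelimb tags. Those higher held 63.6 to 147 CPM in C2C12, 4.96-fold to 11.5-fold above 3 pooled forelimb tags. These are 12.8 CPM, while the interval of 0 forelimb tags reaches 15.8. The fullest of these, chr3:90409676-90409964, held 81 C2C12 tags. The cluster chr11:30470670-30470704 packed 64 C2C12 tags into 35 nt.

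Gene names come from the authors' deposited table of cassette exons, which lists 98 events in 84 genes, chosen by their splicing in forelimb RNA; each event spans an exon and its neighbours. Within those spans the forelimb libraries held 1242, 1565 and 1866 CPM (1558 ± 312) and C2C12 held 1800, inside the range of the forelimb libraries. Of the 84 genes, 55 had tags in both sample types, 4 in forelimb only, 19 in C2C12 only and 6 in neither. Counting intervals of C2C12 and pooled forelimb were apart for 1 gene with C2C12 higher and 5 with C2C12 lower. Among the clusters, 9.39% and 37.2% were apart. The clusters were kept for their number of tags and the spans were not. Many spans held too few tags for their intervals to separate, so genes and clusters cannot be compared this way.

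Mbnl1, the muscleblind relative of the precipitated protein, was the gene with C2C12 higher. Its span chr3:60305186-60399685 held 8, 17 and 31 forelimb tags (235 ± 12.7 CPM) and 272 C2C12 tags (494, interval 437 to 557), while the pooled forelimb interval was 181 to 311. Every forelimb library lay below C2C12. Its 2 clusters with at least 10 C2C12 tags entered through the C2C12 tags alone. They were not called when scaled to all tags but were under TMM, which describes them and supports nothing. At chr3:60332693-60332899 the level was 43.6 CPM against 21.5 ± 20.4, a log2 fold of 0.75 (1.96 under TMM). At chr3:60332909-60332997 it was 20 against 2.68 ± 4.64, a log2 fold of 2.07 (3.17 under TMM).

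Fgfr2, a receptor for fibroblast growth factors with alternative exons used in epithelium and mesenchyme, had the widest gap in the other direction. Its span chr7:137341933-137344686 held 4, 13 and 18 forelimb tags (144 ± 31.2 CPM) and 0 C2C12 tags, an upper interval bound of 6.71. The cluster chr7:137342256-137342352 within it held 2, 3 and 7 forelimb tags and no C2C12 tag, and it entered through the forelimb tags alone. Col2a1, the collagen of cartilage, had 79.8 ± 20.4 in forelimb and a single C2C12 tag (1.82). Other cartilage genes of the table were sparse, with 3 forelimb tags and no C2C12 tag for Acan, the large proteoglycan of cartilage, and none at all for Col11a2, a minor cartilage collagen.

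The remaining genes with intervals apart were lower in C2C12 as well. Ptpn13, a tyrosine phosphatase, had 63.6 ± 14.6 in forelimb and 10.9 in C2C12. Sema3f, a secreted guidance cue, had 36.3 ± 6.99 and 3.64. Dedd2, a protein with a death effector domain, had 0, 1 and 5 forelimb tags and none in C2C12, so forelimb replicate 1 and C2C12 were both at 0. Each of these rests on 16 or fewer forelimb tags.

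Splicing factors were listed as 18 genes, of which 3 are in the exon table. Besides Mbnl1, Rbm9 (now Rbfox2), a regulator of muscle and nerve exons, had 91.9 ± 6.31 in forelimb and 155 in C2C12 (interval 123 to 191), overlapping the pooled forelimb interval of 59 to 142. Rbm10 had 1 C2C12 tag and no forelimb tag. Clta, a clathrin light chain, had 30 ± 17.5 and 74.5, with intervals of 14.8 to 67.4 and 53.5 to 101 that overlap. One cluster in its span, chr4:44045364-44045479, held 16 C2C12 tags and no forelimb tag, and it entered through the C2C12 tags alone. Serpinh1, the chaperone of collagen folding, had 34.5 ± 11.9 and 47.3, and its cluster chr7:106497333-106497607 did not pass (edgeR adjusted p = 0.557, and 0.0578 under TMM).

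Sec24b, a coat protein of vesicles leaving the endoplasmic reticulum, had 80.2 ± 11.2 in forelimb and 58.2 in C2C12. For U2af2, which reads the 3′ splice site, the levels were 48.4 ± 8 and 10.9. Counting intervals overlapped for both genes. Over the 30 genes with at least 3 tags in both sample types, the median log2 ratio of C2C12 to pooled forelimb CPM was -0.24. Of these genes, 11 were above 0 and 19 below. Over all 3079 clusters the median log2 fold fitted by edgeR was -0.23, and 1.00 under TMM. The clusters needed 10 tags in only 1 sample type and include those with none in the other, so the medians cannot be compared. The lists of myoblast, embryonic skin, connective tissue, blood and endothelial markers have no gene in the exon table, so the identity of the cells could not be checked against them and is given by label.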

How the data were processed

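Mbnl3 HITS-CLIP tags of 3 WT forelimb libraries and of C2C12 were taken from deposited lists of mapped tags; per the submitters' processing notes reads were aligned to mm9 with Novoalign (no version is stated). The score column of the deposited tag lists was not used: 1 line was 1 tag. In the authors' exon table the deposited values are estimated counts, of which none was tested here; its header calls the mutant Mbnl2 KO where the labels say Mbnl3, and only its coordinates and gene symbols were used, to define event spans, and 84 of 84 gene IDs matched the GRCm38.p6 symbol table, used for names only. Gene names come from no other source, no mm9 annotation or sequence was used, and no coordinate was moved between builds. Rows of the C2C12 list with the same position, strand and barcode were counted once (677787 rows became 550124 tags).

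Clusters were counted per library and tested with edgeR 4.0.16 (R 4.3.3), quasi-likelihood, offset by all tags, Benjamini-Hochberg threshold 0.05. The fit has 2 residual degrees of freedom, and the single C2C12 set is assumed to vary as the forelimb libraries do; shared molecules make the forelimb spread, and hence p-values, too small. In simulated data with 3079 clusters the test recovered 4% of 2-fold and 30% of 4-fold changes, with 1 false call of 35. The simulated libraries, unlike these, shared no molecules, so this is no error rate for the calls made here. Folds against 0 use 3 tags over the pooled set. Alternatives were scalings, DESeq2 1.42.0, filters, ways of collapsing, tag lengths and left-out libraries; 3 on shared molecules and DESeq2 scaling were chosen after seeing the data. The clusters and lists were chosen with earlier results of these data known. Named were the 15 clusters with most tags in each sample type, the 15 largest called changes each way, clusters in event spans and the 5 fullest sets per sample type; neighbouring clusters called in opposite directions were chosen after their values were seen.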

Additional observations from a re-analysis of the deposited data

How the results depend on the processing

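The number of called clusters, 822 higher and 1261 lower in C2C12 of 3079, depended on most settings. The number of clusters tested changed with many of them. TMM gave 1287 higher and 759 lower, and scaling to the tags in tested clusters 1376 and 877. DESeq2 1.42.0 gave 88 and 84 with its own size factors and 12 and 626 scaled to all tags. Filters gave 258 and 490 of 992 clusters (20 tags, 75.4% called) and 51 and 586 of 770 (filterByExpr, 82.7%). They gave 413 and 4216 of 40761 (3 tags in all, 11.4%) and 191 and 1269 of 1723 (an equal level in either set, 84.7%). Tags of 26 to 30 nt gave 18 and 173 of 2197. Counting molecules shared by forelimb replicates 2 and 3 once gave 422 and 1005 of 2883. With those shared by any forelimb libraries counted once it was 310 and 783 of 2783. Leaving shared molecules out gave 130 and 646 of 1890, and forelimb replicates 2 and 3 as 1 library 220 and 911 of 2883. The 3 item colours as sets gave 877 and 1226 of 3079, and every C2C12 row 975 and 1225 of 4217. Collapsing by position gave 700 and 1184 of 2824, and by the 5′ end 595 and 1073 of 2509. An overlap of 10 nt gave 677 and 1240 of 2760. Leaving out 1 forelimb replicate gave 122 to 488 higher and 485 to 1008 lower, with 2406 to 2837 clusters tested. Leaving out 1 item colour gave 326 to 711 and 1161 to 1244, with 1885 to 2898 tested. The cause of these differences was not tested.

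Of 55 named clusters, 51 were called, 26 of them under every alternative with a value, and 25 were lost under at least 1. Reversed log2 folds were, with DESeq2's own size factors, 0.36 at chr17:39984368-39985249, 0.16 at chr19:5797154-5799352, 0.06 at chr17:39983124-39983650, 0.41 at chr11:108872959-108873418 and 0.77 at chr6:124863700-124864253. With tags of 26 to 30 nt they were 0.03 at chr17:39984368-39985249 and 1.16 at chr11:108872959-108873418. Under TMM they were 0.0 at chr11:108872959-108873418 and 0.34 at chr6:124863700-124864253, which had 0.22 when scaled to tags in tested clusters. Without shared molecules chr11:120439594-120440743 had -0.07. None of the reversed values passed the test. Collapsing by position gave a mitochondrial difference of 0.221 percentage points (0.247 as reported) and a plus strand difference of -0.855 (-1.27), and tags of 26 to 30 nt gave -0.694 for the plus strand and a median distance of densest points of 27.5 nt. The ratio of tags in event spans, 1.16, stayed between 0.994 and 1.28. No paired analysis was possible because the C2C12 rows carry no replicate number.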
